A study of Mus musculus with 5 samples.

Results

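The 10 genes described here mark the first cell lineages of the mouse embryo. They are Pou5f1, Nanog, Sox2, Tdgf1, Utf1 and Dppa4, which are genes of pluripotent cells and the epiblast, and Cdx2, Eomes, Elf5 and Tfap2c, which are genes of the trophectoderm and trophoblast. They were chosen by name, as genes of the embryo, from the 23420 genes of the count table, and their raw counts were read for how far embryo RNA may enter the uterine layer collected around an attached embryo.

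The data were RNA-seq counts from the luminal layer of the uterus, which was cut from frozen sections by laser microdissection. All females were wildtype C57BL/6N, without treatment other than a dye given on day 5 to show implantation sites, and day 1 of pregnancy was the day of the vaginal plug. The 5 groups, of 1 library each, were day 3 morning, day 4 morning, day 4 evening, day 5 morning away from the attached embryo (labelled M pole) and day 5 morning around it (labelled AM pole). By the labels, pregnancy was checked on day 3 by embryos flushed from the oviduct and on day 4 by blastocysts flushed from a uterine horn, while the other horn was frozen. The methods describe pooling of RNA from independent samples for the Lif-floxed, knockout and treated groups, which are not used here. For these 5 libraries, pooling and the age of the mice are not given in the sources used here. The libraries held 15334674, 19529491, 16560409, 16702914 and 19136032 counts in the order above, and no difference between them has a replicate check.

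Before it implants, the blastocyst has an outer trophectoderm, which attaches to the uterine epithelium, and an inner cell mass, which gives the epiblast and the primitive endoderm. Pou5f1, Nanog and Sox2 are the core of the transcription network of pluripotent inner cells, and Cdx2, Eomes, Elf5 and Tfap2c act in the trophectoderm and in trophoblast stem cells. Several of these factors are also used by adult tissues, so a read from such a gene does not by itself show an embryonic cell.

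Levels are given as raw counts and as CPM (counts per 1000000 after scaling of the libraries by the TMM method). Brackets hold exact 95% intervals, Poisson for a level and Clopper-Pearson for a ratio of CPM, and cover counting error only, since reads amplified by PCR are not independent molecules. A level of 0 was set against a floor of 3 counts per library, which equals between 0.160 and 0.190 CPM. Folds given as at least are ratios to this floor, and the counting interval can reach smaller folds. A gene was called higher or lower where its whole interval lay beyond 2-fold.

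All 10 genes were called higher around the embryo than away from it on day 5, where 10.5% of the 16932 genes counted in this pair of libraries were called higher. Over 3 counts were found for 4, 3, 3, 3 and 10 of the genes in the 5 libraries, in the order above. Their summed counts were 88, 227, 132, 117 and 2176 in the same order, or 4.98, 12.7, 8.38, 6.23 and 128 CPM. The sum around the embryo thus stood above those of the other 4 libraries, which ranged from 4.98 to 12.7 CPM, and the ratio around over away was 20.6 [17.1, 25.0]. In bulk tissue, a different number of cells of a type and a different amount of RNA per cell cannot be told apart.

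**Figure D1:**
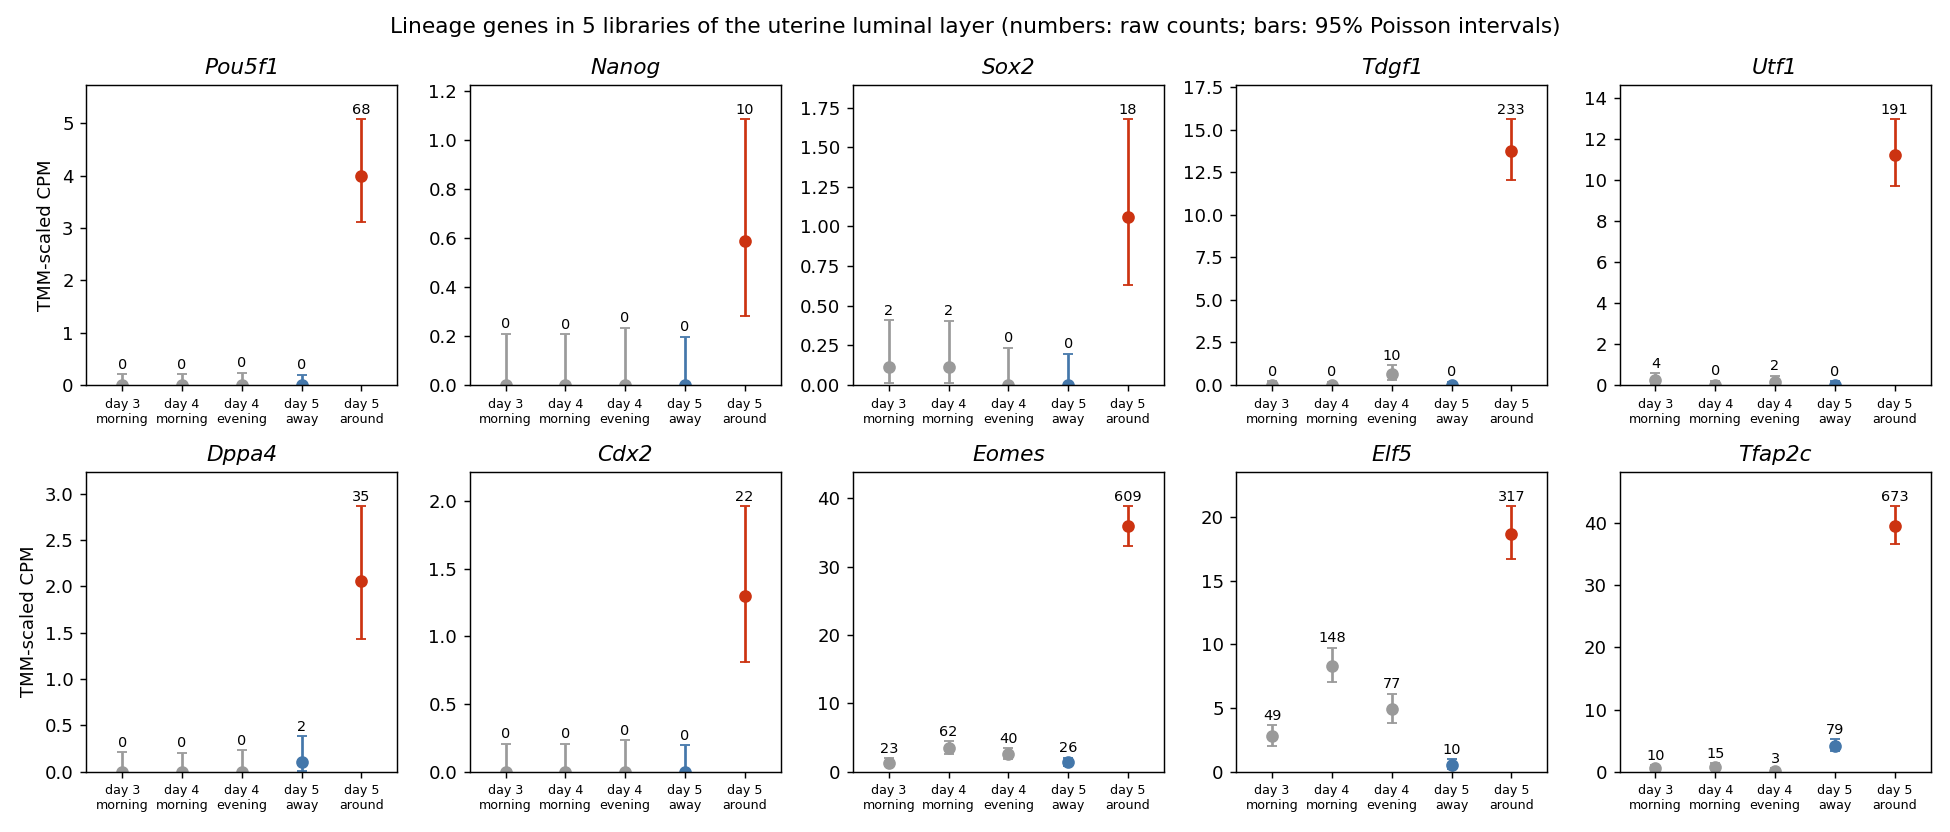
TMM-scaled CPM (vertical axes, from 0) of the 10 lineage genes in 5 uterine luminal layer libraries, 1 per group, with raw counts printed above the points and 95% Poisson intervals as bars. The library around the embryo on day 5 (red) was the highest for each gene, from 10 counts for Nanog to 673 for Tfap2c, while Elf5, Eomes and Tfap2c were also counted in the other libraries.

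Pou5f1, which encodes the POU factor Oct4 of pluripotent cells (chr17:35506032-35510777 in GRCm38), had 68 counts around the embryo and 0 in each of the other 4 libraries. Its level around the embryo was 4.00 CPM [3.11, 5.08], at least 25.0-fold higher than away from it, with a lower limit of 19.8 for the counting interval of the ratio. Nanog, a homeobox factor of the inner cell mass (chr6:122707568-122713778), had 10 counts around the embryo and 0 elsewhere. Both genes were thus seen in a single library. The level of Nanog was 0.589 CPM [0.282, 1.08] and at least 3.68-fold higher around than away, with a lower limit of 2.48. Nanog was the weakest of the 10 calls, since its lower limit fell to 1.96 with library totals in place of TMM and to 1.99 with totals that leave out Rn45s and Lars2.

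Sox2, the partner of Oct4 on many enhancers (chr3:34650005-34652460), had 2, 2, 0, 0 and 18 counts in the order of the libraries given above. Only the library around the embryo passed 3 counts, with 1.06 CPM [0.628, 1.67], at least 6.63-fold higher than away from the embryo, with a lower limit of 4.86. Sox2 lies within the span of Sox2ot, a long noncoding RNA gene on the same strand (chr3:34560381-34677993), although the exons in the table do not overlap. Sox2ot had 139, 509, 196, 17 and 0 counts in the same order, so it was counted in the 4 libraries in which Sox2 had at most 2 counts and was at 0 where Sox2 was highest. Sox2ot was named after its values were seen.

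Tdgf1, which encodes the Nodal co-receptor Cripto of the epiblast (chr9:110939608-110946158), had 0, 0, 10, 0 and 233 counts. Around the embryo it stood at 13.7 CPM [12.01, 15.6], at least 85.8-fold higher than away from it, with a lower limit of 69.3. Utf1, a chromatin-bound factor of undifferentiated cells (chr7:139943856-139945112), had 4, 0, 2, 0 and 191 counts. Its 11.2 CPM [9.71, 12.96] around the embryo was at least 70.4-fold above the level away from it, with a lower limit of 56.7. Dppa4, a nuclear protein of pluripotent cells (chr16:48283735-48294292), had 0, 0, 0, 2 and 35 counts, and its ratio around over away was 19.3 [4.97, 166]. Each of these 3 genes had its highest level around the embryo, and outside that library only Tdgf1 on day 4 evening and Utf1 on day 3 morning passed 3 counts.

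The 6 pluripotency genes together had 6, 2, 12, 2 and 555 counts, or 0.340, 0.112, 0.762, 0.107 and 32.7 CPM. The sum around the embryo was 307-fold [84.5, 2539] the sum away from it. The wide interval comes from the 2 counts away from the embryo, both of Dppa4.

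Cdx2, the homeobox factor that sets up the trophectoderm (chr5:147300900-147307249), had 22 counts around the embryo and 0 in each of the other 4 libraries. Its 1.30 CPM [0.812, 1.96] was at least 8.10-fold higher than away, with a lower limit of 6.05. Cdx2 was the only one of the 4 trophoblast genes that was counted in a single library.

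Eomes, a T-box factor of trophoblast stem cells (chr9:118478189-118486132), had 23, 62, 40, 26 and 609 counts. It was thus counted in every library, between 1.30 and 3.47 CPM before day 5 and away from the embryo, and stood at 35.9 CPM [33.1, 38.8] around the embryo. The ratio around over away was 25.9 [17.5, 40.0], and 80.1% of its counts came from the library around the embryo. Eomes is also a factor of natural killer cells, and the 10 genes listed for those cells summed to 31.7, 74.1, 59.6, 53.8 and 11.7 CPM in the same order. Ncr1, the receptor that defines these cells, had 75, 216, 112, 86 and 0 counts, and Prf1 was also at 0 around the embryo. None of the 10 was called higher around than away and 8 were called lower, where 7.67% of all genes were called lower. This number was 5 with counts halved and 3 with the interval beyond 4-fold, both chosen after seeing the data. The median log2 difference was -2.01, or -2.19 without a prior count and with genes at 0 at their bound, and the most abundant of the 10 around the embryo was Gzmb with 79 counts. The source of the Eomes counts was not tested in any of the 5 libraries.

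Elf5, an ETS factor of trophoblast stem cells and of some adult epithelia (chr2:103412098-103450988), had 49, 148, 77, 10 and 317 counts. Of the 10 genes it had the smallest share of its counts around the embryo, 52.7%, and its level on day 4 morning was 8.29 CPM [7.01, 9.73] against 18.7 CPM [16.7, 20.8] around the embryo. It was lowest away from the embryo on day 5, at 0.533 CPM [0.255, 0.980], which gave a ratio around over away of 35.0 [18.8, 73.8]. Against day 4 evening, the library around the embryo was 3.82-fold higher [2.97, 4.96], so the size of this ratio depended on the library it was set against.

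Tfap2c, which encodes the factor AP-2 gamma of trophectoderm and of other epithelia (chr2:172549593-172558621), had 10, 15, 3, 79 and 673 counts. It was the most abundant of the 10 around the embryo, at 39.6 CPM [36.7, 42.7], and had more counts in both day 5 libraries than in each of the 3 earlier ones. Its ratio around over away, 9.41 [7.45, 12.04], was the smallest of the 4 that had counts on both sides. The 4 trophoblast genes together had 82, 225, 120, 115 and 1621 counts, with a ratio around over away of 15.6 [12.9, 19.0]. Without Tfap2c, the other 9 genes had 1503 counts around the embryo against 38 away, a ratio of 43.7 [31.7, 62.0].

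Between the earlier libraries few of the 10 genes moved past the 2-fold rule. From day 3 morning to day 4 morning, Elf5 was called higher, with a ratio of 2.99 [2.15, 4.22], where 4.09% of all genes counted in that pair were called higher. This call was lost with library totals, where its lower limit was 1.71, and with totals without Rn45s and Lars2, where it was 1.89, both settings added for this step after seeing the data. Eomes had a ratio of 2.67 [1.63, 4.51] over the same step and was not called.

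From day 4 morning to day 4 evening, Tdgf1 went from 0 to 10 counts, at least 3.78-fold higher, with a lower limit of 2.54. It was called higher, where 4.01% of genes were called higher. This call was lost with counts halved, where its lower limit was 1.04, and with the interval beyond 4-fold, both chosen after seeing the data. None of the 10 genes was called lower, where 3.31% of genes were called lower. Elf5 had a ratio of 0.590 [0.442, 0.782] and Tfap2c one of 0.227 [0.0421, 0.802], neither of which passed the rule.

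From day 4 evening to the day 5 layer away from the embryo, the genes went both ways. Tfap2c was called higher, with 79 counts against 3 and a ratio of 22.1 [7.29, 109], where 7.35% of genes were called higher. Elf5 and Tdgf1 were called lower, where 7.83% of genes were called lower. Elf5 had a ratio of 0.109 [0.0503, 0.211]. Tdgf1, with 0 counts against 10, was at least 3.97-fold lower, with an upper limit of 0.374 for the ratio. The call of Tdgf1 was lost with counts halved, where its upper limit was 0.916, and with the interval beyond 4-fold. Both settings were chosen after seeing the data, and the call of Elf5 was kept under each. Tfap2c therefore rose in a library in which 5 of the 6 pluripotency genes and Cdx2 were at 0.

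From day 4 evening to the day 5 layer around the embryo, all 10 genes were called higher, where 14.1% of genes were called higher. This comparison shares a library with the others, so it is given beside them and not as a further test. Tfap2c, with 3 counts on day 4 evening, had a ratio of 208 [70.9, 1011], and Utf1, with 2 counts there, one of 88.6 [24.2, 737]. Tdgf1 had a ratio of 21.6 [11.5, 45.7] and Eomes of 14.1 [10.2, 19.97]. Nanog was at least 3.09-fold higher, with a lower limit of 2.08 that fell to 1.94 with library totals, also added after seeing the data. With the interval beyond 4-fold 8 genes were called, all but Nanog and Elf5, whose lower limits were 2.08 and 2.97. With counts halved 8 were called, all but Nanog and Sox2. Both settings were chosen after seeing the data.

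More genes held exactly 2 counts than 1 count in each of the 5 libraries, 633 against 435 around the embryo and 503 against 450 on day 3 morning, and the reads were paired. Whether both mates of a pair were counted is not given in the sources used here. With all counts halved, a setting chosen after seeing the data, 9 of the 10 genes were called higher around than away, all but Nanog, whose lower limit was 1.01, as were 1441 of all genes against 1782 with the counts as deposited. Under the same setting the calls of Elf5 between day 3 and day 4 morning and both calls of Tdgf1 among the first 4 libraries were lost, as were those of Nanog and Sox2 around the embryo against day 4 evening. The calls of Tfap2c and Elf5 away from the embryo against day 4 evening were kept.

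Per length of transcript, as RPKM (CPM per kilobase of the gene length in the table), the order of the levels around the embryo was Tfap2c at 12.9, Utf1 at 9.69, Eomes at 9.65, Elf5 at 8.31, Tdgf1 at 7.12, Pou5f1 at 2.77, Dppa4 at 1.34, Cdx2 at 0.604, Nanog at 0.434 and Sox2 at 0.431 RPKM. Utf1 and Eomes did not differ beyond counting error, nor did Elf5 and Tdgf1, Cdx2 and Nanog, or Nanog and Sox2. The largest steps between neighbours were 2.57-fold [1.95, 3.41] from Tdgf1 to Pou5f1, 2.22-fold [1.27, 3.98] from Dppa4 to Cdx2 and 2.07-fold [1.35, 3.20] from Pou5f1 to Dppa4. A mean of at least 1 CPM over the 5 libraries was reached by 12918 genes of the table and by 5 of the 10, Tfap2c, Utf1, Eomes, Elf5 and Tdgf1, of which Tdgf1 and Utf1 reached it through the library around the embryo alone. Of those 12918 genes, 64.4% had a lower RPKM around the embryo than Tfap2c and 8.69% a lower one than Sox2.

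Other genes of the same lineages were counted from lists. Of 28 further pluripotency and epiblast genes, 24 had over 3 counts around the embryo. The other libraries had 9, 8, 10 and 6 such genes in their order. Of all 23420 genes, 14541 had over 3 counts around the embryo, against 14378, 14204, 14167 and 14407 in the others. Of the 28, 16 were called higher around than away and 0 lower, where 10.5% and 7.67% of all genes counted in the pair were called. These values over all genes also apply to the lists below. The median log2 difference in CPM, with a prior count of 2, was 3.20 for the 27 counted in the pair and 0.01 for all genes, while without a prior count, over the 24 and 15470 genes with over 3 counts in either library and with genes at 0 at their bound, it was 4.11 and -0.01. The list summed to 300.2, 571, 604, 1763 and 1674 CPM, which was set by Tfcp2l1, a factor with 4616, 9442, 8622, 30953 and 19914 counts.

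Among the list, 13 of the 28 genes had over 3 counts around the embryo and at most 3 in each other library. The same held for 572 of all 23420 genes. Klf4, a factor that epithelia also use, had 330, 198, 344, 1257 and 3987 counts. Dppa5a, an RNA-binding protein of pluripotent cells, had 0, 0, 9, 0 and 1916 counts. It was at least 706-fold higher around than away, with a lower limit of 573. Zfp42, which encodes the pluripotency marker Rex1, had 246 counts around the embryo and 0 elsewhere. It was at least 90.6-fold higher around than away, with a lower limit of 73.1. Tex19.1 had 245 counts around the embryo against 0 elsewhere. Dppa3, a maternal factor of early embryos, had 4, 3, 4, 1 and 113 counts and a ratio of 125 [22.0, 4976]. Sall4 had 210 counts and Fbxo15 223 around the embryo, both at 0 away from it. By contrast, Nodal was at 0 in both day 5 libraries, and Otx2 and Gbx2, factors of later epiblast and neural cells, had 2 and 3 counts around the embryo, and were named after their values were seen.

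Of 27 further trophectoderm and trophoblast genes in the table, 13 had over 3 counts around the embryo, against 7, 5, 7 and 9 in the other libraries. Of the 27, 8 were called higher around than away and 0 lower, where 10.5% and 7.67% of all genes counted in the pair were called. The median log2 difference was 1.69 over the 16 counted in the pair, and 2.34 by the second measure over the 13 with over 3 counts in either library. The list summed to 604, 947, 415, 228 and 395 CPM, and its most abundant gene around the embryo was Gata2, a factor that the uterus also expresses, with 2041 counts. Plac1, a placental surface protein, had 4, 12, 8, 1 and 659 counts and a ratio of 728 [130.3, 28809]. Sox21 had 0, 0, 17, 47 and 1152 counts and a ratio of 27.1 [20.2, 37.1], and Tfap2a had 137 counts against 0 in the other 4 libraries. Gata3, a trophectoderm factor, had 5, 6, 8, 23 and 262 counts and a ratio of 12.6 [8.21, 20.2]. The 6 placental prolactin genes listed, the syncytial genes Syna, Synb and Gcm1, and the labyrinth factor Esx1 were all at 0 around the embryo, and Plet1 was not among the genes of the table.

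**Figure D2:**
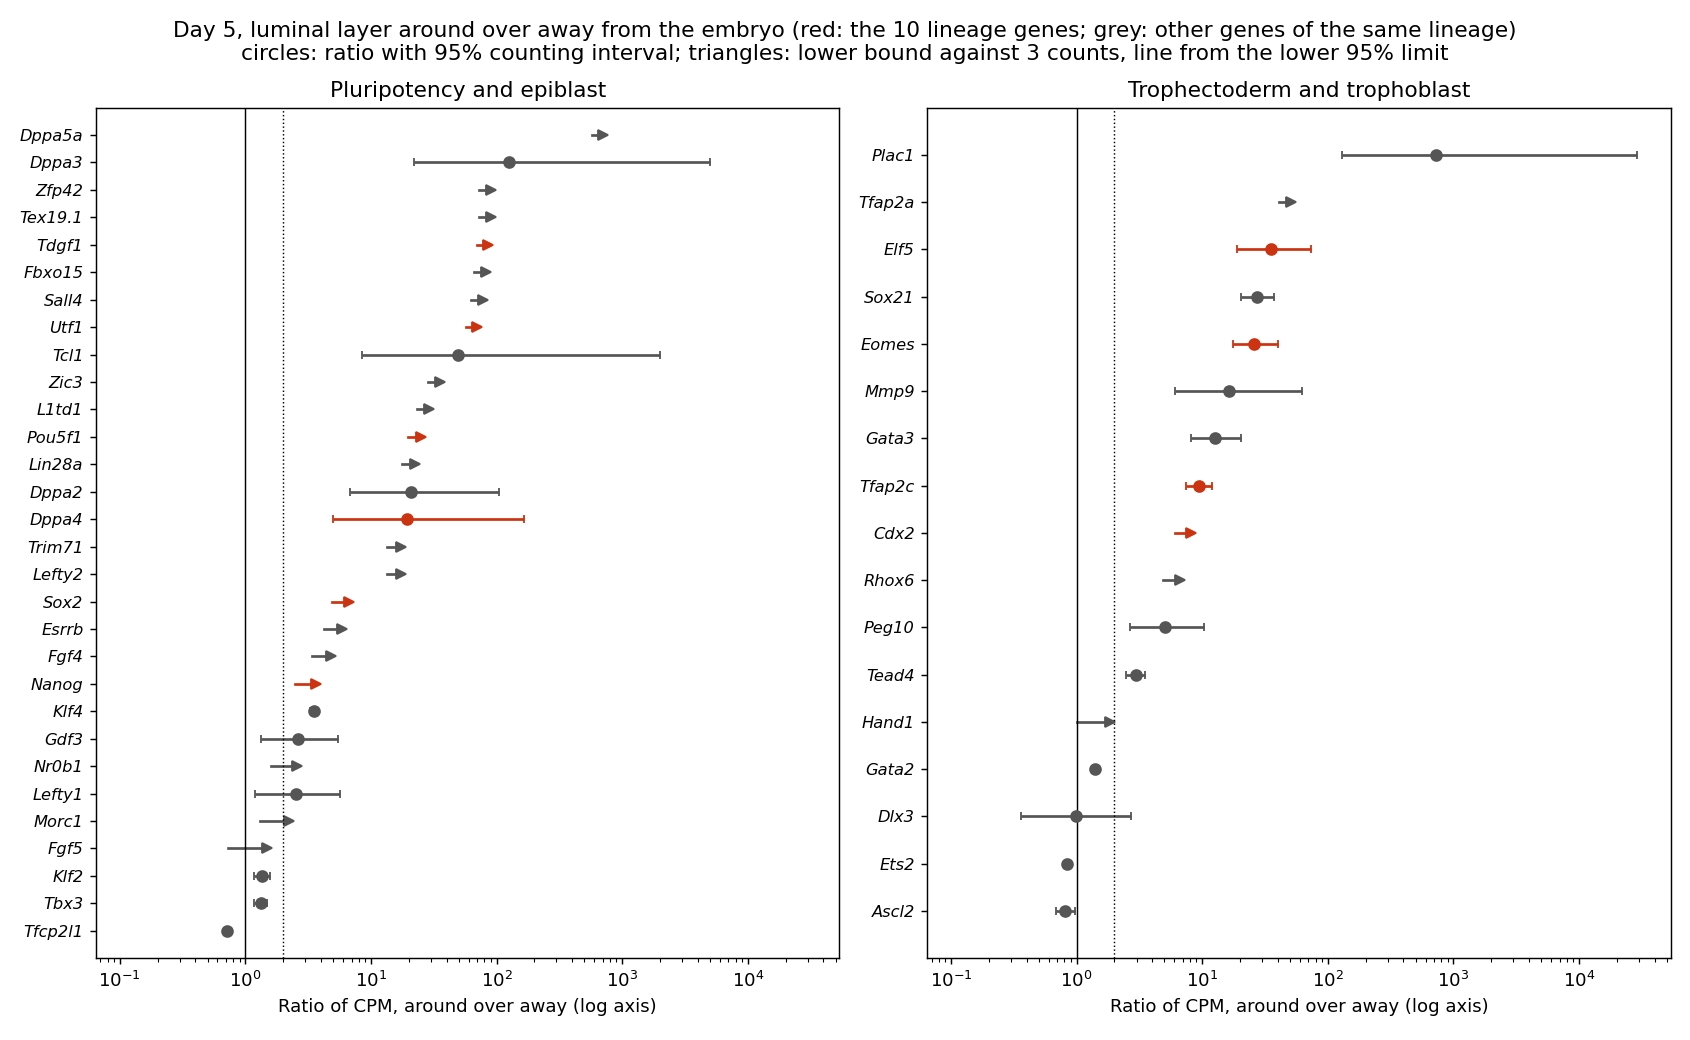
Ratio of CPM around over away from the embryo on day 5 (log axes, 1 library each) for genes with over 3 counts in either library, with the 10 lineage genes in red and other genes of the same lineages in grey. Circles carry 95% counting intervals, triangles are lower bounds against 3 counts with a line from the lower 95% limit, and the dotted line marks 2-fold, beyond which all 10 lineage genes lie.

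Of 18 primitive endoderm genes, 15 had over 3 counts around the embryo, against 10, 8, 8 and 9 in the other libraries. Of the 18, 9 were called higher around than away and 1, Sox7, lower, where 10.5% and 7.67% of all genes counted in the pair were called. The list summed to 1612, 2280, 2088, 1069 and 2644 CPM, nearly all from Sox17, which had 26978, 38230, 28768, 14211 and 39217 counts and was thus abundant in every library. Gata4, a factor of the primitive endoderm, had 54 counts around the embryo and 0 elsewhere, and Rhox5 had 119 against 0 elsewhere. Gata4 and Rhox5 therefore had the pattern of Pou5f1 and Cdx2, while Sox17 did not. The median log2 difference of the list was 2.35 over the 17 counted in the pair, and 2.56 by the second measure over the 15 with over 3 counts in either library.

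Genes of the Y chromosome give a reading that does not depend on lineage, since the dams carry no Y. Ddx3y had 67 counts, Eif2s3y 22, Uty 5 and Kdm5d 2 around the embryo, and each had 0 in the other 4 libraries. The list summed to 5.65 CPM around the embryo, with Ddx3y and Eif2s3y called higher and a median log2 difference of 2.73 over the 4 counted. Usp9y, Zfy1, Zfy2 and Sry were at 0 in all 5 libraries. The Y copy made up 0.711% [0.551, 0.902] of the counts of Ddx3y and its X copy Ddx3x around the embryo, by the exact binomial interval, and 3.96% [2.50, 5.93] of those of Eif2s3y and Eif2s3x. The share was 0.541% [0.176, 1.26] for Uty and Kdm6a and 0.144% [0.0174, 0.518] for Kdm5d and Kdm5c. Away from the embryo, 0 of 7649 counts fell on Ddx3y, which allows a share of up to 0.0482% by the same interval, and in the 3 earlier libraries the limit was between 0.0338% and 0.0453%. The limit away from the embryo was wider for Eif2s3y, at 0.692%, for Uty, at 0.387%, and for Kdm5d, at 0.322%. Erdr1, which the table also places on the Y chromosome, had 13, 12, 19, 29 and 99 counts, was named after its values were seen, and was the only Y entry counted outside the library around the embryo. Since it was counted in all 5 libraries, it does not give the reading of the other Y genes. The source of the counts of the other Y genes, from male embryos, male cells of mating or misplaced reads, was not tested. The source of the Erdr1 counts, maternal tissue included, was not tested either.

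Epithelial markers were counted in all libraries, with 12 of 12 luminal epithelium genes over 3 counts in each. Around the embryo Krt8 and Krt18, which encode keratins, had 14092 and 19600 counts, Cdh1, which encodes E-cadherin, had 22658 and Epcam had 26243, the most of the list. The list summed to 11008, 13706, 10042, 4338 and 8220 CPM, and Calb1, which weighed most in the first 3 sums, had 94960, 143278, 73114, 1357 and 306 counts. Around against away, 6 of the 12 were called higher and 2, Calb1 and Ptgs1, lower, with a median log2 difference of 1.05. Of all genes counted in the pair, 10.5% were called higher and 7.67% lower. With library totals 3 of the 12 were called higher. The 10 lineage genes together stood at 128 CPM around the embryo and the 12 epithelial genes at 8220 CPM. These are sums over different genes, so they do not give the share of embryo RNA in the layer.

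Markers of other cell types moved in different directions with the lineage genes. All 6 smooth muscle genes were called higher around the embryo, where 10.5% of all genes counted in the pair were. With library totals 3 of the 6 were called higher. The list summed to 10.7, 19.0, 24.5, 31.6 and 400.2 CPM. The median log2 difference was 2.47. The most abundant gene of the list was Des, which decidual stroma also makes, with 109, 293, 223, 369 and 6090 counts. Of 13 stroma genes, 3 were called higher (Bmp2, Hand2 and Prl8a2) and 4 lower (Col1a2, Col3a1, Dcn and Lum). Their sum was 611, 588, 681, 605 and 490.1 CPM, with a median log2 difference of -0.22 and Hand2 the most abundant around the embryo at 2282 counts. Prl8a2, a prolactin of decidual cells, had 86 counts around the embryo and 0 elsewhere, a pattern like that of Pou5f1 in a gene of maternal tissue.

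Of 7 leukocyte genes in the table, 1, Cd68, was called higher and 4 lower, and their sum of 247, 358, 318, 252 and 93.4 CPM was lowest around the embryo, with Lyz2 the most abundant at 708 counts and a median log2 difference of -1.75. Of 6 endothelial genes, 1, Cdh5, was called higher, and the sum was 12.96, 26.7, 30.2, 45.4 and 97.5 CPM, with 1229 counts of Cdh5 around the embryo and a median of -0.62. Of 5 gland genes in the table, Foxa2 and Lif were called higher and Prss28 and Prss29 were not, with sums of 4.41, 4.09, 0.190, 3.20 and 26.1 CPM 304 counts of Lif around the embryo and a median of 1.89. Foxa2 is also in the primitive endoderm list and Lif is also made by stroma, and 1 of the calls was kept with counts halved. Hba-a1 and Hba-a2, genes of red blood cells, were at 0 in both day 5 libraries, but their exons overlap each other in the table, so reads shared by both may not have been counted. Alas2 had 2 counts around the embryo against 6 away from it. The part of these cell types in the counts of the 10 lineage genes was not tested.

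**Figure D3:**
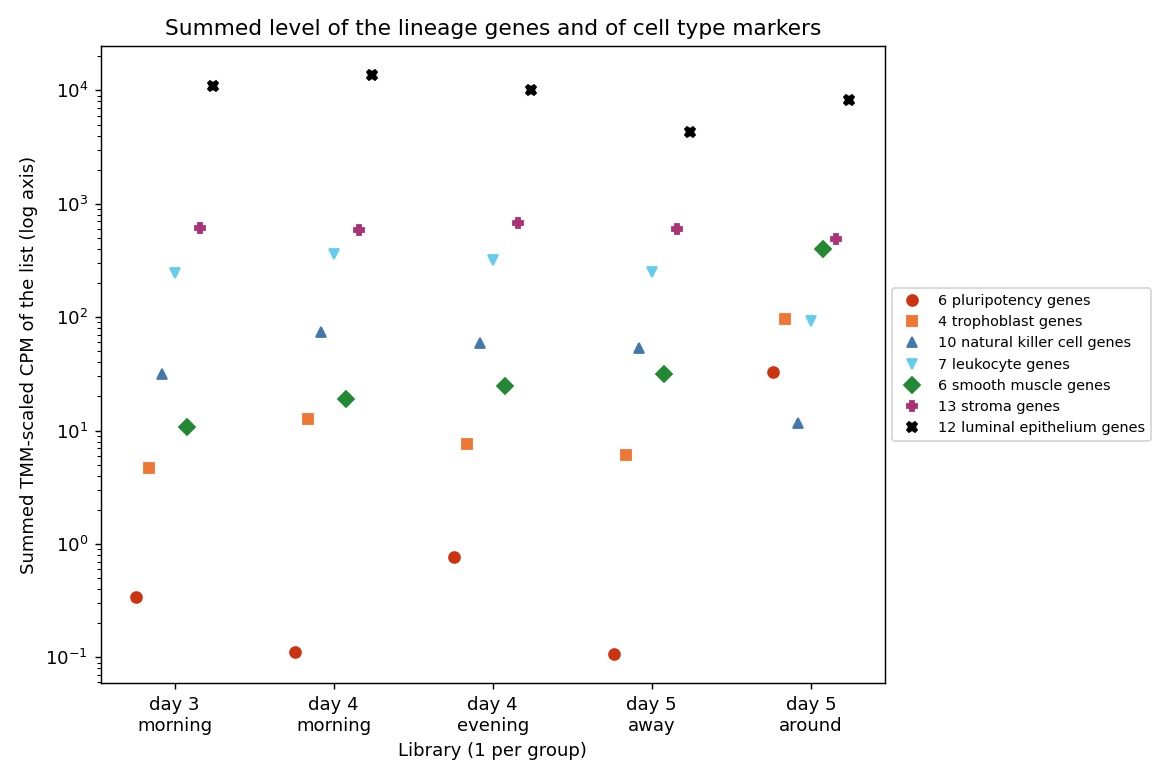
Summed TMM-scaled CPM (log axis) of the 6 pluripotency genes, the 4 trophoblast genes and 5 lists of cell type markers in the 5 libraries, 1 per group, with points set side by side for legibility. The pluripotency sum was at most 0.762 CPM in the first 4 libraries and 32.7 CPM around the embryo, while the natural killer cell sum was lowest there, at 11.7 CPM.

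In the table as a whole, 572 of 23420 genes had over 3 counts around the embryo and at most 3 in each of the other 4 libraries. The same count was 266 for day 3 morning, 195 for day 4 morning, 159 for day 4 evening and 214 for the layer away from the embryo. Of the 10 lineage genes 5 were among the 572, Pou5f1, Nanog, Sox2, Dppa4 and Cdx2, and none was among the genes seen in another single library. Of the other lists, 13 of 28 pluripotency genes, 3 of 27 trophoblast genes, 4 of 18 primitive endoderm genes, 3 of 8 Y genes and 1 of 13 stroma genes were among them, and 0 of the 12 luminal epithelium genes.

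For the 5 lineage genes with at least 100 counts in all, the genes with the most similar profile were found by the total variation distance between the shares of CPM over the 5 libraries, where 0 is the same profile. The nearest to Tdgf1 was Fbxw13 at a distance of 0.000551, with 0, 0, 6, 0 and 138 counts, followed by Gm4926 and Sprr2i. For Utf1 it was Krt17, a keratin with 11660 counts around the embryo, at 0.00637, followed by Pthlh and Inhba. The nearest to Eomes was Car9 at 0.0249, then Ndufa4l2 and Col5a3. For Elf5 it was Serpine2 at 0.0436, then Scnn1b and Hk2. The nearest to Tfap2c was Gjb2, a gap junction gene with 239366 counts around the embryo and 32323 away from it, at 0.0195, then Tgm1 and Bst1. Only genes with a mean of 1 CPM or more could be listed, which left out the 5 lineage genes below it, and none of the other 5 was listed for another. Krt17 and Gjb2 had far more counts than the lineage genes.

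In the annotation, all 10 genes are protein-coding in GENCODE vM21, and none shares an exon base with another gene of the table. Promoters of 300 bases were taken from RefSeq on GRCm38.p6, where 8 of the 10 genes had an entry, all but Dppa4 and Tfap2c. The core of the octamer to which Oct4 binds, TTTGCAT on either strand (ATGCAAA on the other), was in 4.63% of 32851 promoters. By gene, it was in 5.24% of 27025 genes and in 3 of the 8, Cdx2, Nanog and Sox2, and not in the entries of Pou5f1, Tdgf1, Utf1, Eomes or Elf5. The windows of the 3 genes are shown with the motif in capitals, 5′ to 3′ on the strand of the gene, at chr5:147307375-147307411 for Cdx2 (minus strand), chr6:122707399-122707435 for Nanog (plus strand) and chr3:34649881-34649917 for Sox2 (plus strand). A match describes the letters and not a bound site.

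Cdx2: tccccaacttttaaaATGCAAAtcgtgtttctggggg
Nanog: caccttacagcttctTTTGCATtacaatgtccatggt
Sox2: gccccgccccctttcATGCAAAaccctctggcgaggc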

How the data were processed

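Per the labels and methods, RNA of microdissected tissue was amplified with a SMART-seq v.4 kit and sequenced as paired-end reads. The submitters' processing notes name HISAT2, GRCm38/mm10 and featureCounts of Subread 2.0.0. The authors deposited raw counts per gene with no normalization. The HISAT2 version, annotation, strand setting and handling of multi-mapped reads are not given in the sources used here. Counts were scaled with TMM in edgeR 4.0.16 (R 4.3.3), with DESeq2 1.42.0 size factors and library totals as alternatives, and intervals were computed with scipy 1.17.1 in Python 3.11.15 (numpy 2.4.6, pandas 2.3.3, matplotlib 3.10.9). Rn45s and Lars2 took from 15.0% to 23.2% of a library. The interval rule was tested on simulated counts with Poisson error alone, which cannot show how it does with spread between replicates or with PCR copies. The 10 genes and the lists were chosen with earlier results of these data known. All 5 library columns were used, with 0 left out. The genes named include the 10 and list genes with over 3 counts or the largest levels or ratios around the embryo. Also named are the defining markers at 0, Y genes, and the 3 nearest profiles among those that averaged 1 CPM or more. Otx2, Gbx2, Alas2, Sox2ot and the 10 genes with the most counts seen around the embryo alone were named outside these rules. No test between groups was run, since each group has 1 library.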

Additional observations from a re-analysis of the deposited data

How the results depend on the processing

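All 30 ratios of single lineage genes around over away under the other scalings kept a log2 value over 1, the lowest being 1.54 for Nanog with library totals. Library totals lowered every log2 ratio of this pair by 0.34 against TMM, and totals without Rn45s and Lars2 by 0.31. With them the log2 ratio of the summed genes was 4.02 and 4.05 in place of 4.36, and that of the trophoblast genes 3.62 and 3.65 in place of 3.96. The summed level around the embryo was 114 CPM with library totals. With totals without Rn45s and Lars2 the sums were 6.75, 15.1, 10.02, 8.25 and 136 CPM in the order of the libraries. Of the 10 genes, 9 were called higher around than away with library totals (1342 of all genes), with totals without Rn45s and Lars2 (1364) and with a whole interval beyond 4-fold (809). Between day 3 and day 4 morning 0 genes were called with either total, beyond 4-fold or with counts halved. Between day 4 morning and evening 0 were called higher, and between day 4 evening and the layer away 1 was called lower, both beyond 4-fold and with counts halved. All alternatives for calls between times, for list calls and for the separate pluripotency and trophoblast sums, all halved counts, and 4-fold for all genes were chosen after seeing the data. With a floor of 10 counts 2 genes passed on day 3 morning, and 301 genes were seen around the embryo with 0 counts in the other 4 libraries. These changes follow from the scaling or the stricter rule itself. At this depth, Nanog's 10 counts gave an interval of 0.282 to 1.08 CPM. No paired analysis was possible because each group has 1 library.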

Other observations

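Of the 572 genes seen over 3 counts around the embryo and not elsewhere, 282 had at least 10 counts and 40 at least 100, and none of the 10 lineage genes was among those 40. The 10 with the most counts, named after their values were seen, were Prss56 with 7489, 2010109I03Rik with 6476, BC053393 with 4217, Nppc with 3149, Crct1 with 1811, Gm1045 with 1062, Ctsll3 with 850, Lce3a with 839, Muc5ac with 719 and Mrgprg with 716. Each of these had more counts around the embryo than Tfap2c, which had the most of the 10 lineage genes there, and at most 2 counts in any other library.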
